A study of Mus musculus with 13 samples.

Results

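Visceral endoderm and yolk sac genes were followed in the implantation sites of mouse and rat embryos carried by mice. The set consists of 29 genes listed by name, and every probe set annotated to only 1 of these symbols was taken. Of 45101 probe sets on the array, 57 met this rule and covered 28 of the 29 genes, among 18193 genes with such a probe set. The member without a value is Trf, which encodes the iron carrier transferrin, because its probe set is annotated to Trf and Srprb together. RNA of whole implantation sites, the embryo with the uterine tissue around it, was measured on 13 Affymetrix mouse expression arrays. All recipients were female ICR mice of 25 g on day 3 of pseudopregnancy. Mouse sites held mouse embryos flushed on day 4 of pregnancy, with 2 arrays for day 7 and 2 for day 9. Rat sites held embryos flushed from Wistar rats on day 5, with 2 arrays for each day. Co-transfer sites were also rat embryo sites, from uteri that received mouse embryos too, with 3 arrays for day 7 and 2 for day 9. Whether arrays of one group hold tissue of different animals is not stated in the labels, and the p-values rest on the spread between arrays, which may be technical.

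The visceral endoderm is the outer epithelium of the early rodent conceptus, and it becomes the endoderm layer of the visceral yolk sac. Before a working placenta and liver exist, this layer takes up maternal proteins through apical receptors and secretes serum proteins and lipoproteins that a fetal liver makes later. Transcription factors of the HNF, FOXA and GATA families are known to drive these genes in yolk sac endoderm and in liver.

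Every array had been scaled to the same trimmed mean before deposit, and array medians ran from 141.4 to 204.6. The tissue label, uterus, was borne out by decidual genes, whose summed signal over 12 genes lay between 53306 and 123014 on all arrays. The arrays fell into 4 runs by their recorded hybridisation times. Co-transfer replicate 3 of day 7 alone was hybridised on another date and read on another scanner. Only the comparison of rat with mouse sites on day 7 and that of co-transfer with rat sites on day 9 lay within 1 run, and elsewhere the run and the group cannot be told apart. RNA quality controls also moved with the groups. The 3′ to 5′ ratio of the Gapdh control was 1.44 to 1.54 in mouse sites of day 7 and 2.56 to 4.07 on the other arrays. That of the Actb control went the other way, at 3.47 and 3.71 in mouse sites of day 7 and 2.36 to 3.34 elsewhere. The 18S rRNA middle probe set read 6209 to 6737 in rat sites of day 9 and 522.4 to 1933 elsewhere. The part of these controls in the results was not tested. The probes were designed for mouse transcripts, and how well rat transcripts bind them was not measured here, so less RNA in a rat embryo and weaker binding of it cannot be told apart. In whole tissue, fewer cells of a type and less RNA per cell cannot be told apart either.

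The promoters of Afp, Apoa1 and Apoc2 are shown because these genes had some of the widest ranges of the set and a single promoter window with a matching motif, and that of Alb because it neighbours Afp on chromosome 5 and was not called in mouse sites between the days. Each window runs from 250 bases before to 50 after the gene's start, 5′ to 3′ on the gene's strand, from RefSeq on GRCm38.p6. Capitals mark the letters GTTAAT, taken as a core of the HNF1 site, and TGTTTNC, taken as a FOXA motif, searched on both strands. The Afp window is chr5:90490464-90490763 (+), Alb chr5:90460620-90460919 (+), Apoa1 chr9:46228380-46228679 (+) and Apoc2 chr7:19677892-19678191 (-).
Afp: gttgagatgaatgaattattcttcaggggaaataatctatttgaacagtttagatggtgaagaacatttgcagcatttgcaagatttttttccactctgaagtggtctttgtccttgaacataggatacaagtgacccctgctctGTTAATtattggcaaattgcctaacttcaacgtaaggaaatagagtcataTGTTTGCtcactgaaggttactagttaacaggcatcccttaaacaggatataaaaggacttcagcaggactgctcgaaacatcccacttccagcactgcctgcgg
Alb: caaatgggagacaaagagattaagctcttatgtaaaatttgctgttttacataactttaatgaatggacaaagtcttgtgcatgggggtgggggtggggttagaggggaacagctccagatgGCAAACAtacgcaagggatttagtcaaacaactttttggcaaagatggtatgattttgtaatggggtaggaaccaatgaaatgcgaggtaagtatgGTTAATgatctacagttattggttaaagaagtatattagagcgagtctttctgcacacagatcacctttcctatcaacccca
Apoa1: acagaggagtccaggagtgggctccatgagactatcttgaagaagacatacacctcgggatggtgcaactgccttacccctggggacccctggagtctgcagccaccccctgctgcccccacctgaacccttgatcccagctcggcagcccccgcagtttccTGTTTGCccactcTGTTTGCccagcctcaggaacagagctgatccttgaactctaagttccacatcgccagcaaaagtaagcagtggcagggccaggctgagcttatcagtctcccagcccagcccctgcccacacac
Apoc2: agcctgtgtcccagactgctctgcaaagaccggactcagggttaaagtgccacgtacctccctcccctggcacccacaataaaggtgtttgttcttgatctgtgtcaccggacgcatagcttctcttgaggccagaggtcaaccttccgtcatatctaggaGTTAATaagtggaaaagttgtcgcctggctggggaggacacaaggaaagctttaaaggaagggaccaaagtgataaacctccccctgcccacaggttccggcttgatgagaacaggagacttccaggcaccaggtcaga

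The HNF1 core of Afp began 105 bases and its FOXA motif 55 bases before the start. Apoa1 held a pair of FOXA motifs, 88 and 75 bases before its start, and the HNF1 core of Apoc2 began 89 bases before it. RefSeq windows were found for 23 members, 31 windows in all. The HNF1 core occurred in 25.8% of these and in 7.10% of all 32851 promoter windows, the FOXA motif in 38.7% and 20.5%, the HNF4 letters AAGTCCA in 12.9% and 4.17%, and the GATA letters AGATAA in 9.68% and 11.2%. Alb held both an HNF1 core, 32 bases before its start, and a FOXA motif, so these letters were shared by Afp, which rose in mouse sites from day 7 to day 9, and Alb, which did not pass that test. The windows of Cubn, Apoa4, Amn and Fgg, which also rose in mouse sites, held none of the motifs searched. Such matches are letters only and were not tested as binding sites. Ttr, Gata4, Gata6, Sox7 and Sox17 had no entry in the table used here.

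Of the 28 members, 20 had their highest group mean in mouse sites of day 9 and none its lowest. These 20 include members that passed no test, such as Fgb, Gata4 and Slc13a4. The share of all genes with their highest group mean there was not computed. The summed signal of the members was 34213 to 34526 in mouse sites of day 9, 9534 to 9938 in rat sites and 7256 to 7281 in co-transfer sites of that day, and 7548 to 9190 over the 7 arrays of day 7. Values were compared as log2(signal + 57.1), a scale that understates changes of dim genes, with limma and Benjamini-Hochberg adjustment over all probe sets, and each gene was counted once, by its brightest probe set. From day 7 to day 9 in mouse sites, 15 members rose and 2 fell at an adjusted p under 0.05, where 14.1% of all genes rose and 15.5% fell. The median change of the members was 1.11 on the log2 scale, against 0.08 for all genes.

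**Figure D1:**
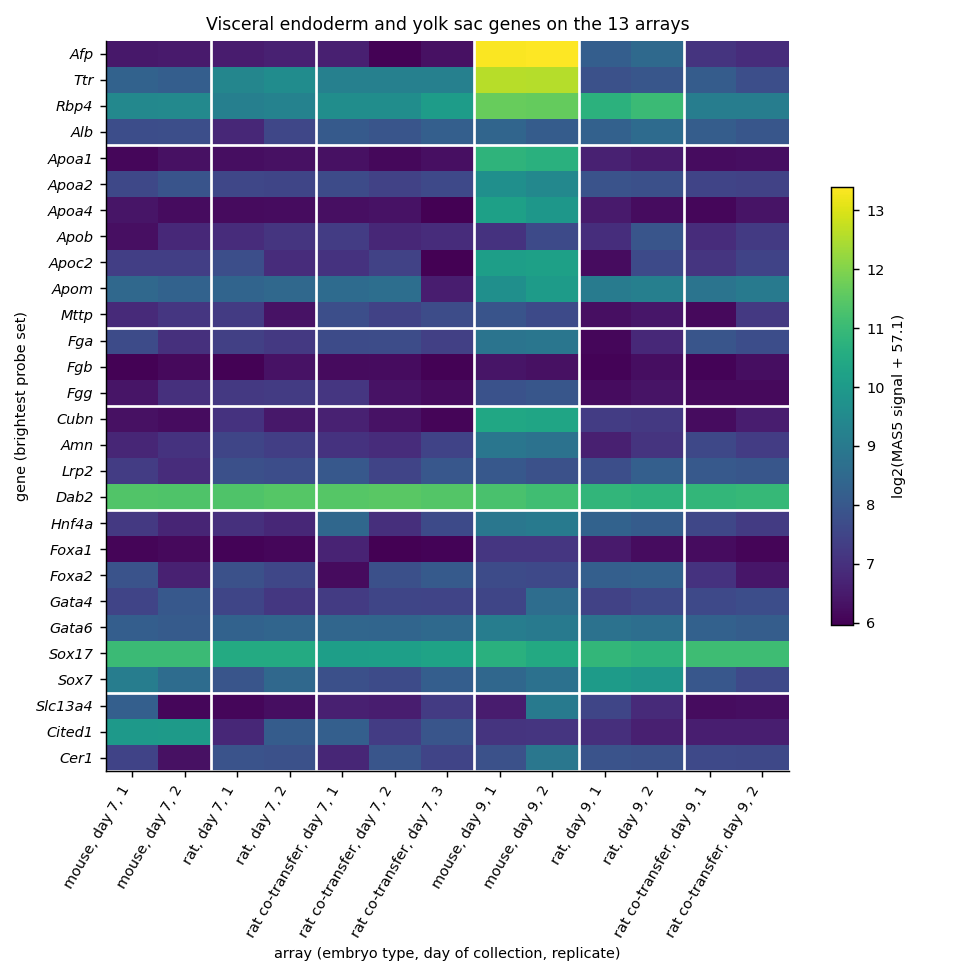
Colour gives log2(MAS5 signal + 57.1) of the brightest probe set of each of 28 members (y axis, ordered by role, white lines between roles) on each of 13 arrays (x axis, white lines between groups). The 2 arrays of mouse sites on day 9 are brighter than all others for Afp, Ttr, Apoa1, Apoa4, Apoc2 and Cubn, whereas Dab2 and Sox17 are bright on every array.

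On day 9, rat sites had 14 members lower and 1 higher than mouse sites, against a background of 10.8% of all genes lower and 11.2% higher. The median member difference was -0.75, and that of all genes 0.02. Co-transfer sites had 13 members lower and 1 higher than the same mouse sites, against 2.85% and 3.53% of all genes, with medians of -1.01 and -0.03. This count rests on both co-transfer arrays: 9 members were called without replicate 1 and 9 without replicate 2, the calls of Amn, Fgg, Foxa1 and Hnf4a being lost in either case. Both comparisons share the mouse arrays. Lower in both were 11 members: Afp, Ttr, Rbp4, Apoa1, Apoa2, Apoa4, Apoc2, Fgg, Cubn, Amn and Foxa1. Each of these 11 was also among the members that rose in mouse sites from day 7 to day 9, a comparison that uses the same day 9 arrays.

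**Figure D2:**
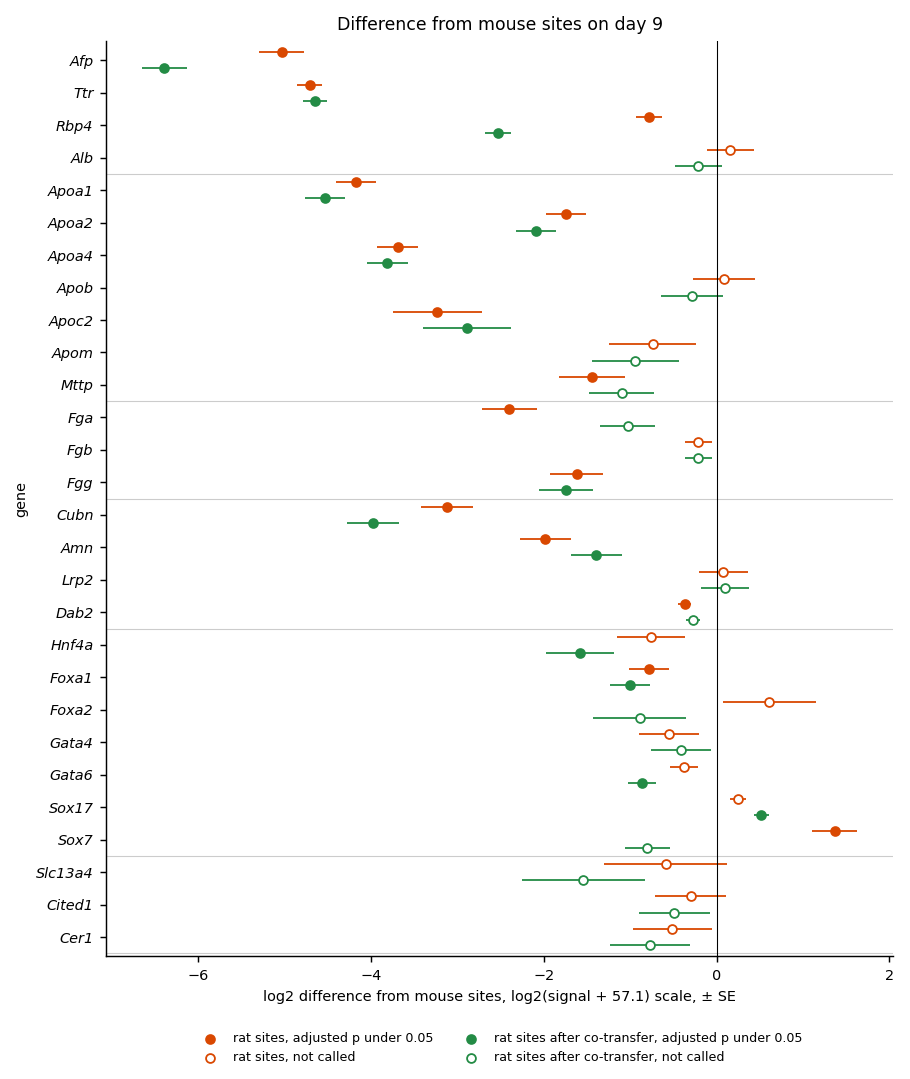
The x axis gives the log2 difference from mouse sites on day 9, on the log2(signal + 57.1) scale, with bars for the standard error, and the y axis the 28 members by role. Filled points passed an adjusted p of 0.05. Afp (-5.03 in rat and -6.39 in co-transfer sites) and Ttr (-4.71 and -4.65) lie farthest left, and Sox7 in rat sites (1.37) and Sox17 in co-transfer sites (0.52) are the called points on the right.

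Among the secreted serum proteins, Afp, which encodes alpha-fetoprotein, the main serum protein of yolk sac and fetal liver, showed the widest range of the set. Its signal was 10509 and 10776 in mouse sites of day 9, 234.8 and 309.0 in rat sites and 78.6 and 62.5 in co-transfer sites, and on day 7 it was 29.8 and 33.3 in mouse sites, 34.6 and 42.4 in rat sites and 41.8, 7.8 and 21.1 in co-transfer sites. The 3 groups of day 9 did not overlap, and all 6 of their arrays lay above all arrays of day 7. The difference from mouse sites was -5.03 in rat sites (SE 0.26, adjusted p = 1.16e-08) and -6.39 in co-transfer sites (SE 0.26, adjusted p = 6.6e-09). Afp was lower in co-transfer than in rat sites by -1.36 (SE 0.26, adjusted p = 0.00193), and it rose from day 7 to day 9 in rat sites by 1.77 (adjusted p = 0.000221). Both of these calls depend on the probe set. Afp has 5 probe sets, and on the brightest of those without a suffix for shared or variant sequences the rat sites of day 9 read 13.1 and 13.4, the difference between the rat embryo groups was -0.05 (adjusted p = 0.932) and the rise in rat sites 0.07 (adjusted p = 0.873). Both differences from mouse sites on day 9 were called on 4 of the 5, and the last, dim on all arrays, read 29.5 and 119.3 in mouse sites of day 9.

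Ttr encodes transthyretin, the carrier of thyroid hormone and of retinol-binding protein. It read 6179 and 6104 in mouse sites of day 9, 166.9 and 193.0 in rat sites and 225.4 and 158.0 in co-transfer sites. On day 7 it read 257.4 and 234.2 in mouse sites, 612.2 and 707.3 in rat sites and 533.4, 537.0 and 536.8 in co-transfer sites. On this probe set every rat embryo site thus lay above every mouse site on day 7, and far below on day 9. The day 7 difference from mouse sites was 1.24 in rat sites (SE 0.14, adjusted p = 7.79e-05) and 0.97 in co-transfer sites (SE 0.13, adjusted p = 0.00021). On day 9 it was -4.71 (SE 0.14, adjusted p = 1.03e-10) and -4.65 (SE 0.14, adjusted p = 6.55e-10). Both differences of day 9 were called on all 4 probe sets of Ttr, and both of day 7 on 3. On the dimmest the groups of day 7 overlapped. It read 136.0 and 32.4 in mouse sites, 130.6 and 203.5 in rat sites and 36.6, 88.8 and 45.4 in co-transfer sites. Ttr fell from day 7 to day 9 in rat sites by 1.60 and in co-transfer sites by 1.27, whereas it rose by 4.36 in mouse sites. In co-transfer against rat sites of day 9 its difference was 0.06, with a 95% interval from -0.25 to 0.37, although a dimmer probe set gave -0.78 (adjusted p = 0.0365).

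Rbp4, which encodes the retinol-binding protein of plasma, was called different in all 3 comparisons of day 9, as was Afp. Its signal was 3191 and 3151 in mouse sites, 1648 and 2024 in rat sites and 501.3 and 501.9 in co-transfer sites. The day 7 signal was 635.4 and 646.4 in mouse sites, 523.3 and 558.6 in rat sites and 725.3, 719.8 and 1021 in co-transfer sites. The groups of day 9 did not overlap, and the co-transfer arrays lay below every array of day 7. Against mouse sites the difference was -0.78 in rat sites (SE 0.15, adjusted p = 0.00212) and -2.53 in co-transfer sites (SE 0.15, adjusted p = 2.75e-07). Co-transfer sites were lower than rat sites by -1.75 (SE 0.15, adjusted p = 1.43e-06), a comparison within 1 run. From day 7 to day 9 Rbp4 rose by 2.21 in mouse sites and by 1.66 in rat sites and fell by 0.64 in co-transfer sites, where the call was lost without either day 9 array (adjusted p = 0.0512 and 0.0504).

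Alb, the albumin gene next to Afp, read 279.4 and 224.2 in mouse sites of day 9, 252.2 and 323.6 in rat sites and 228.5 and 189.8 in co-transfer sites, so the groups overlapped. The difference of rat from mouse sites was 0.16, with a 95% interval from -0.43 to 0.74. Its call, a rise in rat sites from day 7 to day 9 by 1.25 (adjusted p = 0.00498), was lost without rat replicate 1 of day 7, which read 54.8 beside 129.0 in replicate 2 (adjusted p = 0.0612).

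**Figure D3:**
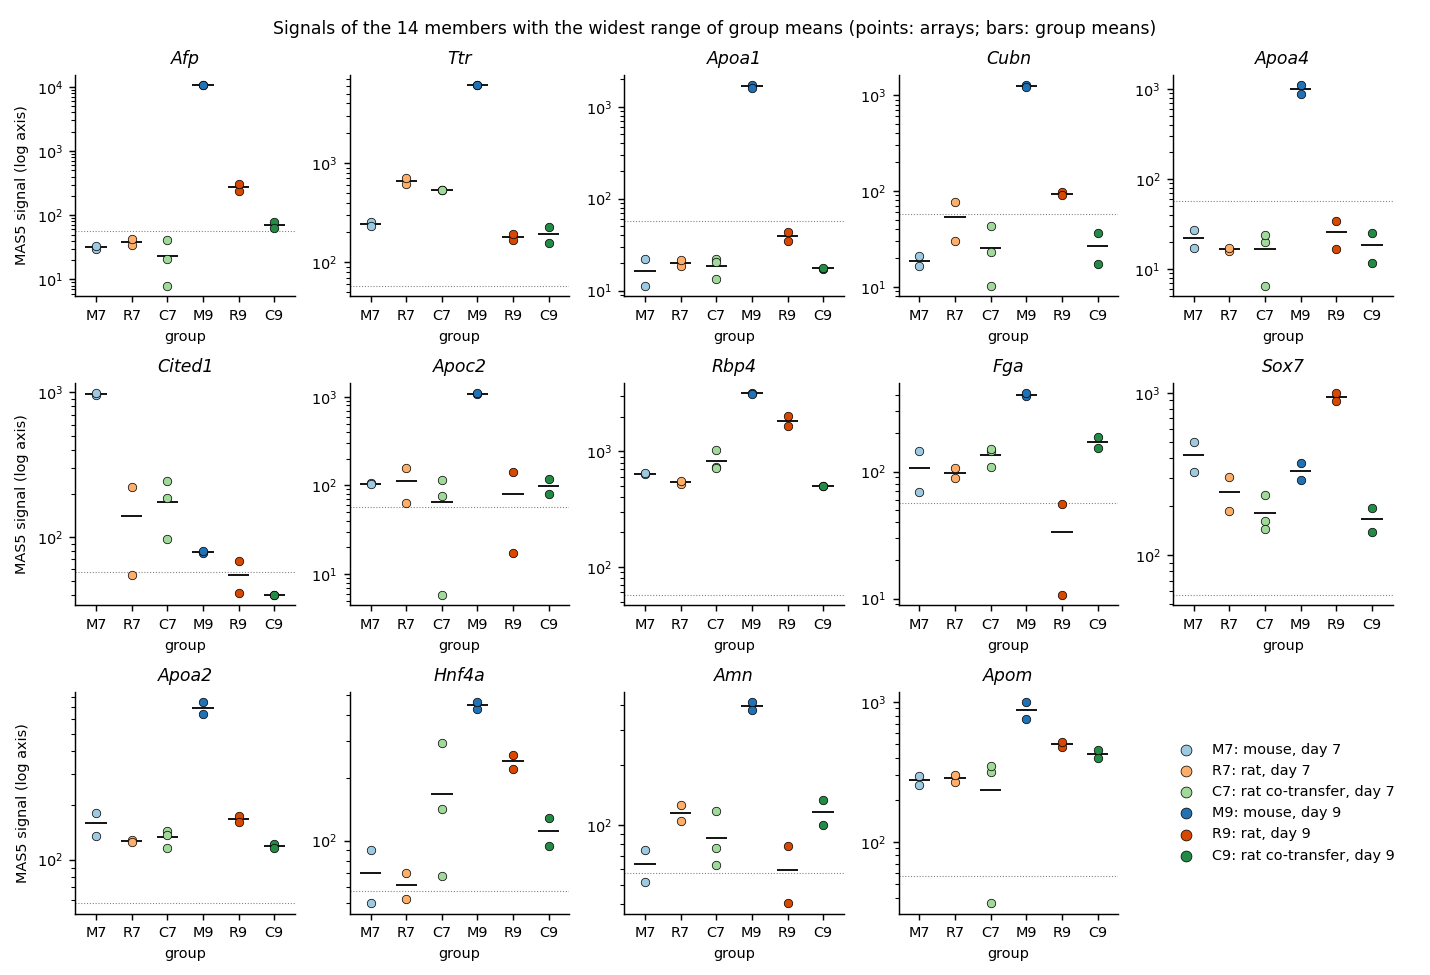
Each panel gives the MAS5 signal (y axis, log scale) of 1 of the 14 members with the widest range of group means, by group (x axis), with points for arrays, bars for group means and a dotted line at 57.1. Mouse sites of day 9 are highest in 12 panels; Cited1 is highest in mouse sites of day 7 and Sox7 in rat sites of day 9.

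The apolipoproteins and the proteins of lipoprotein assembly gave 5 of 7 members lower in rat than in mouse sites on day 9 (10.8% of all genes), 4 of 7 lower in co-transfer sites (2.85%), and 4 of 7 that rose in mouse sites from day 7 to day 9 (14.1%). Apoa1, the main protein of high-density lipoprotein, read 1745 and 1590 in mouse sites of day 9, 43.7 and 34.2 in rat sites, and 17.1 and 17.8 in co-transfer sites. On day 7 all 3 groups were as dim, at 11.1 and 21.8 in mouse sites, 18.6 and 21.7 in rat sites and 21.9, 13.2 and 20.7 in co-transfer sites. Its differences from mouse sites were -4.17 (SE 0.23, adjusted p = 2.98e-08) and -4.53 (SE 0.23, adjusted p = 8.64e-08), and all 4 of its probe sets were called in both. Apoa4, which lies beside Apoa1 and encodes a protein of intestinal and yolk sac lipoproteins, read 1123 and 889.7 in mouse sites of day 9, 34.2 and 16.7 in rat sites and 11.7 and 25.2 in co-transfer sites, and on day 7 26.9 and 17.2, 16 and 17.0, and 20.2, 23.6 and 6.4 in the same order of groups. Apoa4 differed by -3.69 in rat sites (SE 0.24, adjusted p = 1.61e-07) and by -3.81 in co-transfer sites (SE 0.24, adjusted p = 6.85e-07). For both genes the 2 arrays of mouse sites on day 9 were the only ones on which the signal passed the 60th percentile of its array.

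Apoa2, the second protein of high-density lipoprotein, read 750.7 and 640.6 in mouse sites of day 9, 174.2 and 161.8 in rat sites, and 122.4 and 115.3 in co-transfer sites. Its day 7 signal was 135.3 and 181.8 in mouse sites, 129.1 and 125.3 in rat sites and 144.8, 116.1 and 137.3 in co-transfer sites, and all 7 of these arrays lay below both mouse arrays of day 9. Its differences were -1.74 (SE 0.23, adjusted p = 0.000102) and -2.09 (SE 0.23, adjusted p = 0.000108). Apoc2, the cofactor of lipoprotein lipase, read 1074 and 1103 in mouse sites of day 9, 17.2 and 142.5 in rat sites and 80.1 and 117.6 in co-transfer sites. The mouse sites lay far above both groups, but the arrays of the rat sites differed widely, and so did those of day 7, with 105.8 and 103.9 in mouse sites, 159.2 and 63.1 in rat sites and 76.4, 115.1 and 5.8 in co-transfer sites. The differences were -3.23 (SE 0.51, adjusted p = 0.000495) and -2.89 (SE 0.51, adjusted p = 0.00503), and the second was not called without co-transfer replicate 1 (-2.71, adjusted p = 0.0583).

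Apom, the carrier of sphingosine phosphate on lipoproteins, read 751.6 and 1004 in mouse sites of day 9, 478.3 and 515.1 in rat sites and 395.7 and 455.3 in co-transfer sites. Its values of day 7 were 297.5 and 255.9 in mouse sites, 268.8 and 302.8 in rat sites and 318.0, 349.0 and 36.3 in co-transfer sites, with co-transfer replicate 3 far below the rest. The groups of day 9 did not overlap, but neither difference passed the test (-0.74, adjusted p = 0.4, and -0.94, adjusted p = 0.409). Its dimmer probe set read 402.2 and 438.6 in mouse sites of day 9 and 10.6 to 60.3 on all other arrays, and was called in both (-2.63, adjusted p = 1.91e-05, and -2.55, adjusted p = 0.000143). Apob, the backbone protein of very-low-density lipoprotein, was split between probe sets in the same way: its brightest probe set read 77.0 and 139.9 in mouse sites of day 9, 65.2 and 187.4 in rat sites and 61.8 and 93.2 in co-transfer sites, and was called in no comparison. On day 7 it read 20.7 and 54.9 in mouse sites, 62.0 and 81.9 in rat sites and 97.8, 54.6 and 62.9 in co-transfer sites. The dimmer probe set read 349.4 and 438.6 in mouse sites of day 9 and 8.4 to 120.9 elsewhere. That probe set was called lower in rat sites (-1.86, adjusted p = 0.00554) and in co-transfer sites (-2.44, adjusted p = 0.00317). Mttp, the transfer protein that loads lipid onto Apob, was dim on all arrays (13.6 to 183.3) and was called lower in rat sites (-1.44, adjusted p = 0.0185), a call lost without mouse replicate 1 (adjusted p = 0.097), without rat replicate 1 (adjusted p = 0.0989) and without rat replicate 2 of day 9 (adjusted p = 0.065).

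The fibrinogen chains, which form the precursor of fibrin and are encoded by 3 neighbouring genes, were not all called in the same comparisons. Fga read 394.2 and 414.7 in mouse sites of day 9, 10.7 and 56.1 in rat sites and 187.6 and 153.0 in co-transfer sites. Day 7 gave 145.9 and 69.4 in mouse sites, 107.0 and 89.1 in rat sites and 145.4, 150.3 and 108.4 in co-transfer sites. The 3 groups of day 9 did not overlap, with rat sites below every other array. Fga was lower in rat than in mouse sites by -2.40 (SE 0.32, adjusted p = 0.000127), and in co-transfer sites its difference of -1.03 did not pass (adjusted p = 0.107). It was the member higher in co-transfer than in rat sites, by 1.37 (SE 0.32, adjusted p = 0.00875), but not without rat replicate 1 (1.0, adjusted p = 0.0919) or co-transfer replicate 1 (1.26, adjusted p = 0.0731). Fgg read 172.6 and 191.7 in mouse sites of day 9, 14.5 to 24.8 in both groups of rat embryo sites and 15.6 to 96.6 on day 7, and its differences were -1.62 (adjusted p = 0.00266) and -1.74 (adjusted p = 0.00628). The second was lost without co-transfer replicate 1 (adjusted p = 0.0574) or 2 (adjusted p = 0.0584), and the rise of Fgg in mouse sites by 1.21 (adjusted p = 0.0139) without mouse replicate 1 of day 7 (adjusted p = 0.134) or replicate 2 of day 9 (adjusted p = 0.0708). Fgb stayed between 6.9 and 26.5 on all arrays and was called in no comparison.

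The uptake receptors take maternal proteins, vitamins and lipids into the visceral endoderm. Cubn encodes cubilin, the receptor for the intrinsic factor and vitamin complex and for albumin and Apoa1. It read 1291 and 1231 in mouse sites of day 9, 98 and 90.3 in rat sites, and 17.2 and 36.3 in co-transfer sites. Its day 7 values were 21.0 and 16.5 in mouse sites, 76.0 and 30 in rat sites and 43.3, 23.2 and 10.1 in co-transfer sites. The 3 groups of day 9 did not overlap. The differences from mouse sites were -3.12 (SE 0.30, adjusted p = 5.21e-06) and -3.98 (SE 0.30, adjusted p = 3.04e-06), and the difference of -0.86 between the rat embryo groups did not pass (adjusted p = 0.0682). A dimmer Cubn probe set rose in rat sites from day 7 to day 9 by 1.46 (adjusted p = 0.0127), where the brightest gave 0.49 (adjusted p = 0.287). Amn encodes amnionless, the partner that carries cubilin to the membrane. It read 414.3 and 377.3 in mouse sites of day 9, 40.3 and 78.3 in rat sites and 132.5 and 100.3 in co-transfer sites, and on day 7 51.9 and 75.1, 125.7 and 103.9, and 76.1, 62.9 and 117.9 in the same order of groups. Mouse sites of day 9 lay above all other arrays. The differences were -1.98 in rat sites (SE 0.29, adjusted p = 0.000311) and -1.39 in co-transfer sites (SE 0.29, adjusted p = 0.0164), the latter not called without any 1 of the 4 arrays compared (adjusted p = 0.0638 to 0.146).

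Lrp2 encodes megalin, the large endocytic receptor that works with cubilin, and its 3 probe sets read 5.7 to 249.7 in all. The brightest, at 199.1 and 165.9 in mouse sites of day 9, 159.0 and 238.7 in rat sites and 204.5 and 192.2 in co-transfer sites, had read 99.5 and 62.9, 162.1 and 154.8, and 199.1, 124.0 and 195.0 on day 7 in the same order. It was called in no comparison, at 0.08 in rat sites of day 9 with a 95% interval from -0.52 to 0.68, and a dim one was called lower there (-0.81, adjusted p = 0.0441). Dab2, the endocytic adaptor of both receptors, was bright on every array, from 1683 to 2834. On day 7 it read 2641 and 2564 in mouse sites, 2551 and 2714 in rat sites and 2739, 2834 and 2668 in co-transfer sites. Day 9 gave 2420 and 2154 in mouse sites of day 9, 1817 and 1683 in rat sites and 1846 and 1919 in co-transfer sites. The rat embryo sites lay below all mouse arrays of day 9 by a small margin, -0.37 in rat sites (SE 0.08, adjusted p = 0.00398) and -0.27 in co-transfer sites (adjusted p = 0.0723). On the mean of its 4 probe sets the difference in rat sites was -0.13 (adjusted p = 0.509), and its falls from day 7 to day 9 were not called in rat sites (-0.21, adjusted p = 0.212) or in co-transfer sites (-0.27, adjusted p = 0.119).

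Of the 7 transcription factors, 1 was lower and 1 higher in rat than in mouse sites on day 9 (10.8% and 11.2% of all genes). In co-transfer sites 3 were lower and 1 higher, against 2.85% and 3.53% of all genes. Hnf4a, which encodes the nuclear receptor required for serum protein expression in visceral endoderm, read 428.4 and 463.5 in mouse sites of day 9, 258.1 and 221.6 in rat sites and 128.6 and 94.5 in co-transfer sites. At the earlier day it read 90.6 and 50 in mouse sites, 70.0 and 52.7 in rat sites and 293.9, 67.7 and 141.4 in co-transfer sites. The groups of day 9 did not overlap. Hnf4a rose in mouse sites by 2.00 (SE 0.39, adjusted p = 0.00229) and in rat sites by 1.33 (SE 0.39, adjusted p = 0.0293), the latter not called without any 1 of the 4 rat arrays (adjusted p = 0.082 to 0.145). Against mouse sites of day 9 the difference was -0.76 in rat sites (adjusted p = 0.246) and -1.58 in co-transfer sites (SE 0.39, adjusted p = 0.0394), and this call too was lost without any 1 of its 4 arrays (adjusted p = 0.0954 to 0.232). Its 4 probe sets differed, and on 1 without a shared-sequence suffix, which ran from 73.4 to 262.8 over all arrays, the change in mouse sites was -0.19 (adjusted p = 0.736). On the other probe set without one, Hnf4a rose in mouse sites from 17.4 and 7.6 to 109.1 and 160.5 (1.45, adjusted p = 0.00476). On day 9 that probe set read 4.2 and 15.1 in rat sites (-1.52, adjusted p = 0.00458) and 10.5 and 19.2 in co-transfer sites (-1.40, adjusted p = 0.0249), and it was called lower in both.

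Foxa1, a pioneer factor of endoderm, read 82.6 and 84.9 in mouse sites of day 9 and at most 46.7 on any other array. It was called lower in rat sites (-0.78, adjusted p = 0.0325) and in co-transfer sites (-1.0, adjusted p = 0.0259). The first was lost without either mouse array of day 9 (adjusted p = 0.0915 and 0.11) or rat replicate 2 (adjusted p = 0.196), and the second without any 1 of its 4 arrays (adjusted p = 0.0656 to 0.184). Foxa2, its relative, was called in no comparison, and in rat sites of day 9 it read 239.6 and 251.8 beside 27.5 and 77.0 in co-transfer sites (-1.51, adjusted p = 0.0801). Gata6, needed for the first endoderm of the embryo, rose in mouse sites from 234.4 and 215.0 to 501.9 and 470.7 (0.95, SE 0.16, adjusted p = 0.000845). It was lower in co-transfer sites of day 9, at 254.0 and 231.0 (-0.86, SE 0.16, adjusted p = 0.00814), although not without co-transfer replicate 2 (adjusted p = 0.0845), and read 379.2 and 344.5 in rat sites (-0.38, adjusted p = 0.155). On day 7 it was 259.9 and 276.8 in rat sites and 283.7, 278.6 and 306.3 in co-transfer sites, all above the mouse sites of that day. Gata4, its close relative, read 126.6 and 337.2 in mouse sites of day 9 and 87.8 to 202.3 on the other arrays, and was called in no comparison.

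Sox7 and Sox17 encode related factors of early endoderm that endothelium expresses too, and Sox17 is also made by uterine epithelium. Sox7 read 995.3 and 888.8 in rat sites of day 9, 292.3 and 370.7 in mouse sites and 196.2 and 138.5 in co-transfer sites, and on day 7 496.9 and 327.2 in mouse sites, 188.0 and 302.4 in rat sites and 162.1, 145.9 and 236.6 in co-transfer sites. Rat sites of day 9 thus lay above every other array. Sox7 was higher there than in mouse sites by 1.37 (SE 0.26, adjusted p = 0.00239) and lower in co-transfer than in rat sites by -2.16 (SE 0.26, adjusted p = 4.83e-05), the widest difference between the rat embryo groups in the set. A dimmer Sox7 probe set was called in no comparison, and on the mean of both the rise over mouse sites did not pass (0.69, adjusted p = 0.0675). The epithelial list was highest in rat sites of day 9 too. Over its 17 genes the summed signal was 121789 to 124409 in rat sites, 22268 to 23193 in mouse sites and 37124 to 40465 in co-transfer sites. Its mean log2 signal was 12.15 and 12.14 in rat sites, 9.82 and 9.90 in mouse sites and 9.94 and 9.99 in co-transfer sites. Between co-transfer and mouse sites 3 of the 17 were higher and 3 lower, against 3.53% and 2.85% of all genes (median difference -0.16). The mean log2 signal of 13 endothelial genes, in contrast, was lowest in rat sites of day 9, at 9.44 and 9.45, beside 9.85 and 9.80 in mouse sites and 9.96 and 9.98 in co-transfer sites. The part of either tissue in the result was not tested.

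Sox17 was bright on every array. On day 7 it read 2022 and 2048 in mouse sites, 1394 and 1411 in rat sites and 1066, 1084 and 1175 in co-transfer sites, and the groups did not overlap. The differences from mouse sites were -0.52 (SE 0.09, adjusted p = 0.00137) and -0.84 (SE 0.08, adjusted p = 9.37e-06). The epithelial list was also highest in mouse sites of day 7, at 90829 to 91662. It was 55788 to 57487 in rat sites and 53621 to 56968 in co-transfer sites, which overlapped. On day 9 Sox17 read 1579 and 1378 in mouse sites, 1858 and 1683 in rat sites and 2129 and 2149 in co-transfer sites. On this probe set the order of the groups on day 7 was thus turned on day 9. The difference from mouse sites was 0.25 in rat sites (adjusted p = 0.0683) and 0.52 in co-transfer sites (SE 0.09, adjusted p = 0.00345). A dimmer Sox17 probe set overlapped between the groups of day 9. It read 468.0 and 303.6 in mouse sites, 526.2 and 486.3 in rat sites and 441.6 and 488.2 in co-transfer sites. On the mean of both probe sets the difference in co-transfer sites was 0.39 and not called (adjusted p = 0.0842). From day 7 to day 9 Sox17 fell by 0.45 in mouse sites and rose by 0.32 in rat sites, a call lost without rat replicate 1 or 2 of day 7 (adjusted p = 0.0876 and 0.0763) or replicate 1 of day 9 (adjusted p = 0.131), and by 0.92 in co-transfer sites. On day 9 the epithelial list was highest in rat sites and the endothelial list in co-transfer sites. The part of either tissue in the Sox17 differences was not tested.

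Of the remaining members, Cited1, a transcriptional coregulator of yolk sac and trophoblast, had the opposite course. It read 955.1 and 989.3 in mouse sites of day 7, 54.5 and 223.5 in rat sites and 243.1, 97.6 and 184.9 in co-transfer sites. Day 9 gave 77.9 and 79.9, 67.8 and 40.9, and 39.8 and 40.0 in the same order of groups. Mouse sites of day 7 lay above every other array. Cited1 was lower on day 7 in rat sites by -2.54 (SE 0.41, adjusted p = 0.001) and in co-transfer sites by -2.20 (SE 0.37, adjusted p = 0.00118), and it fell in mouse sites to day 9 by 2.92 (adjusted p = 0.000159). Cer1, a secreted inhibitor of the anterior visceral endoderm, rose in mouse sites from 117.7 and 21.9 to 164.9 and 429.6, by 1.48 (adjusted p = 0.0321), a call lost without mouse replicate 2 of day 7 (adjusted p = 0.263) or of day 9 (adjusted p = 0.282). On its other probe set Cer1 changed by 0.01 in mouse sites. The rise was not called on the mean of both (0.75, adjusted p = 0.0606) or with quantile normalization (1.28, adjusted p = 0.0812). Slc13a4, a sulfate transporter, differed widely between mouse replicates of day 9 (34.7 and 454.7) and was called in no comparison.

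On day 7 few members differed. Between rat and mouse sites 1 member was higher and 2 lower (Ttr, Sox17 and Cited1), against 7.45% and 7.33% of all genes, and the median difference was 0 beside 0.03 for all genes. Co-transfer sites had 1 member higher and 3 lower than the same mouse sites, with Sox7 as the fourth (-0.97, adjusted p = 0.0141, lost without mouse replicate 1 of day 7 at an adjusted p of 0.172), against 9.20% and 9.90% of all genes. Between co-transfer and rat sites limma called 0 of 28 members, against 0.857% of all genes. At an unadjusted p under 0.05 there were 6, with differences of the 28 members from -0.67 to 0.89 and a lowest adjusted p of 0.104.

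On day 9 co-transfer and rat sites differed in 4 of 28 members, with 3 lower (Afp, Rbp4 and Sox7) and 1 higher (Fga), against 12.1% and 11.8% of all genes. The median member difference was -0.21, beside -0.07 for all genes. For Apoa1 the difference was -0.36, with a 95% interval from -0.87 to 0.14, and for Apoa4 -0.13, from -0.66 to 0.40. For Apoc2 the interval ran from -0.75 to 1.44, so these data do not show that the groups were alike.

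From day 7 to day 9, 6 members rose in rat sites (Afp, Rbp4, Alb, Hnf4a, Sox17 and Sox7) and 2 fell (Ttr and Dab2), against 13.7% and 14.6% of all genes. Only 3 were called higher, and 3 lower, without rat replicate 1 of day 7, and 4 were called higher without rat replicate 2 of day 7 or replicate 1 of day 9. In co-transfer sites 1 rose (Sox17) and 3 fell (Ttr, Rbp4 and Dab2), against 7.94% and 9.57%. No apolipoprotein or fibrinogen member was called in either group: at an adjusted p under 0.05 limma called 0 of 7 and 0 of 3 in each. The median change of the members was 0.29 in rat sites and -0.02 in co-transfer sites, and 1.11 in mouse sites. Whether the course differed between embryo types was tested as an interaction, which called 14 members for rat against mouse sites (22.5% of all genes), 14 for co-transfer against mouse sites (12.1%) and 4 for co-transfer against rat sites (18.3%).

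**Figure D4:**
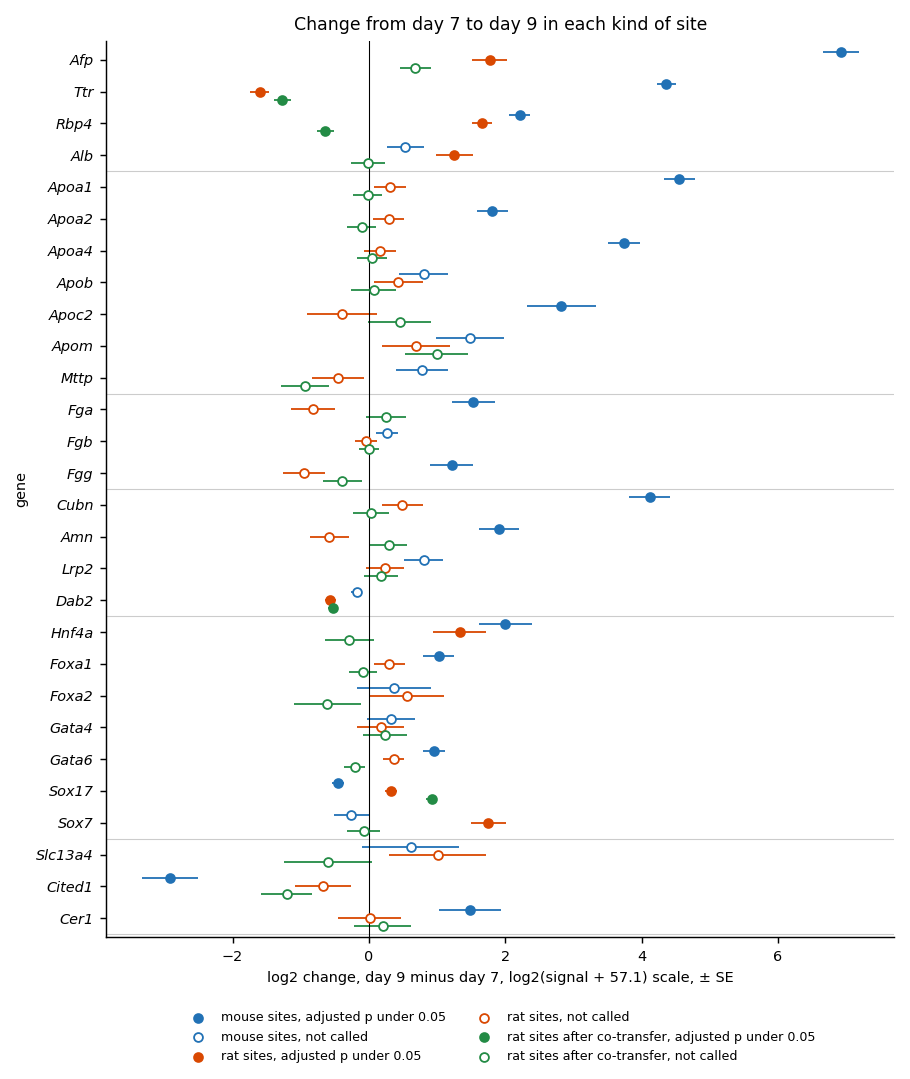
The x axis gives the log2 change from day 7 to day 9, on the log2(signal + 57.1) scale, with bars for the standard error, in mouse, rat and co-transfer sites, and the y axis the 28 members by role. Filled points passed an adjusted p of 0.05. Afp (6.92), Apoa1 (4.55), Ttr (4.36) and Cubn (4.12) rose most in mouse sites. In rat sites Afp (1.77), Sox7 (1.75), Rbp4 (1.66), Hnf4a (1.33), Alb (1.25) and Sox17 (0.32) are the filled points above 0.

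A second list of visceral endoderm and yolk sac genes, with 30 measured genes that are not members, went the same way in part. From day 7 to day 9 in mouse sites 14 of the 30 rose and 3 fell, against 14.1% and 15.5% of all genes. On day 9 rat sites had 13 lower and 2 higher than mouse sites (median -0.40), against 10.8% and 11.2% of all genes. Co-transfer sites had 10 lower and 2 higher (median -0.27), against 2.85% and 3.53%. Rhox5, a homeobox gene of extraembryonic tissue, read 2757 and 3102 in mouse sites of day 9, 161.9 and 96.8 in rat sites and 157.6 and 55.2 in co-transfer sites. Igf2, the imprinted growth factor of extraembryonic and embryonic tissue, read 2990 and 2596, then 115.4 and 90.8, then 458.7 and 281.8, and its difference between the rat embryo groups was called (1.39, SE 0.39, adjusted p = 0.0274). Bmp2, a signal that decidual cells also make in quantity and that stands on the decidual list too, read 3133 and 2415 in mouse sites, 488.1 and 473.1 in rat sites and 6513 and 6562 in co-transfer sites, higher in co-transfer than in rat sites by 3.62 (SE 0.09, adjusted p = 2.63e-11). It and Spink1, a protease inhibitor also made by uterine epithelium, were the 2 genes higher in co-transfer than in mouse sites, by 1.23 and 2.54. Spink1 and Tmprss2, a membrane protease, were the 2 higher in rat sites, by 3.08 and 0.96, and both were named after their values were seen. Between the rat embryo groups of day 9, 5 genes of the list were higher and 5 lower in co-transfer sites, against 11.8% and 12.1% of all genes.

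Some markers of the other tissues a site can hold moved alongside the members on day 9. Of all genes, 10.8% were lower and 11.2% higher in rat than in mouse sites of that day. For co-transfer against mouse sites these shares were 2.85% and 3.53%. The 11 primitive erythroid genes, which belong to the blood islands of the yolk sac, summed to 50144 to 50648 in mouse sites, 2608 to 2746 in rat sites and 1231 to 1237 in co-transfer sites, with 5 lower and 0 higher in each comparison with mouse sites. Hba-x, an embryonic globin, read 9311 and 8996 in mouse sites, 129.1 and 166.8 in rat sites and 94.3 and 22.3 in co-transfer sites. The 15 trophoblast genes summed to 33250 to 35216, 2120 to 2689 and 5446 to 5558, with 10 lower in rat sites and 7 in co-transfer sites. The 12 decidual genes summed to 87391 to 91244, 53306 to 54920 and 106910 to 109824, so in co-transfer sites, where the members were low, they were higher than in mouse sites. The 13 genes of the embryo proper were low in all groups, with a summed signal of 1372 to 3165, and 1 of them was lower in rat than in mouse sites on day 9. The part of these tissues in the members' differences was not tested.

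**Figure D5:**
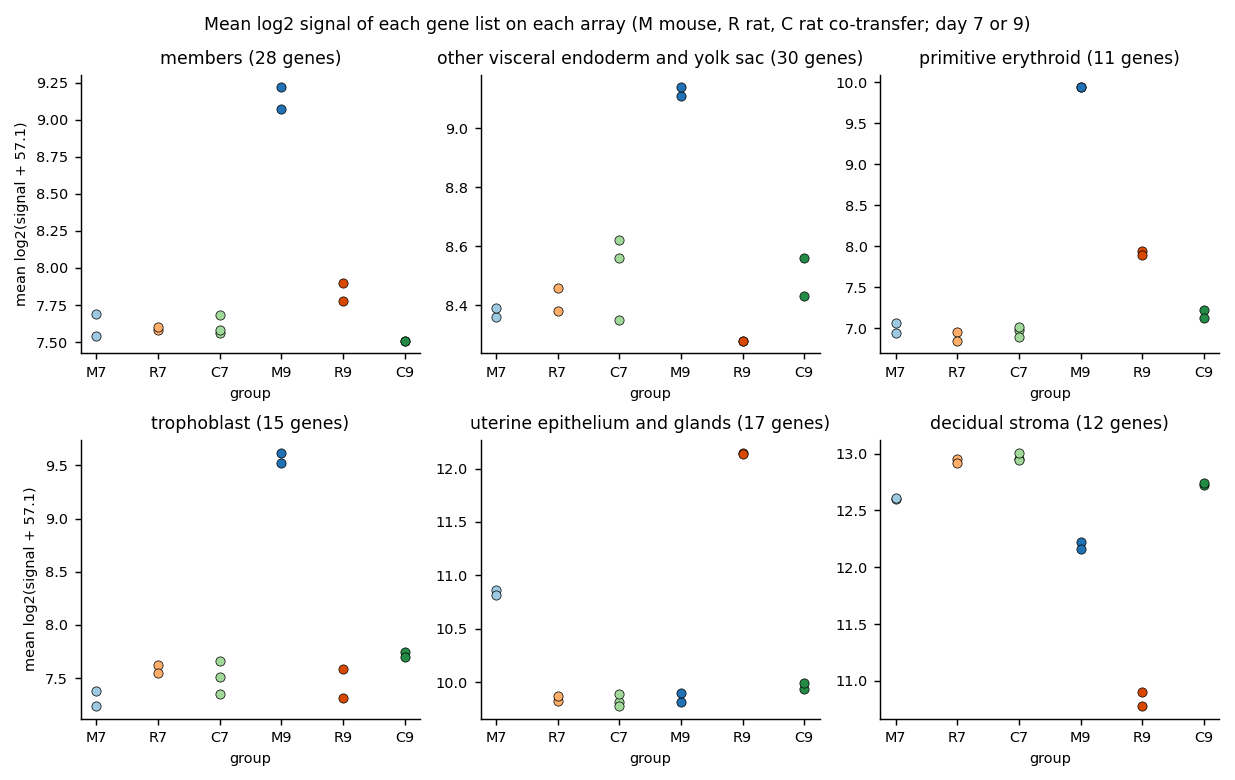
Each panel gives the mean log2(signal + 57.1) of a gene list (y axis) on each array, by group (x axis). On day 9 mouse sites (M9) are highest for the members (9.07 and 9.22), the other visceral endoderm and yolk sac genes, the primitive erythroid and the trophoblast genes, whereas rat sites (R9) are highest for uterine epithelium and lowest for decidual stroma.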

How the data were processed

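The authors deposited 1 linear intensity for each probe set and array, made with MAS5 according to the submitters' processing notes. No MAS5 version was found in the labels or headers, and detection calls were not used here. The trimmed mean of each array (2% left out at each end) was close to 500.0 as deposited by the authors, so the arrays had been scaled before deposit. Gene symbols came from the platform annotation: 34945 probe sets had 1 symbol, 932 several and 9211 none.

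Tests used log2(signal + 57.1), where 57.1 is the 25th percentile of all deposited values. In R 4.3.3, limma 3.58.1 fitted the means of 6 groups (lmFit, then eBayes with a variance trend, 7 residual and a median of 5.77 prior degrees of freedom) over all 13 arrays and 45037 probe sets, leaving out 64 controls. No filter on low values was used, because a gene bright in only 1 group would pass such a filter through that group. Without any filter, all 28 measured members entered the test. The Benjamini-Hochberg adjustment was made separately in 9 comparisons and 3 interactions. Runs were read from hybridisation times, a gap over 30 minutes starting a new run. No 2 arrays held identical values.

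The members, the other lists and the tests were chosen with earlier results of these data known. By rule, values on every array were for the 14 members with the widest range between group means and for members whose probe sets disagree, given mostly for the brightest probe set, and ranges for the others. From each other list at most 3 genes were to be named, those called with the largest changes between rat and mouse or between co-transfer and rat sites of day 9. Spink1 and Tmprss2 were named outside this rule. The number of arrays limits the precision. Alternatives tried were other pseudocounts, a filter on low values, quantile normalization, no variance trend, fits on the compared groups only, other choices of probe set, blocks for run, hybridisation date and replicate number, and each array left out.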

Additional observations from a re-analysis of the deposited data

Results flagged for a closer look

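The results listed here are changes from day 7 to day 9 that differed between embryo types by a limma interaction test at an adjusted p under 0.05. Each value is the log2 change in the first group minus that in the second.

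For rat against mouse sites, the serum protein genes gave -5.14 for Afp and -5.95 for Ttr, which rose in mouse sites and fell in rat sites. The lipoprotein genes gave -4.24 for Apoa1, -1.52 for Apoa2, -3.58 for Apoa4 and -3.23 for Apoc2, and the fibrinogen chains -2.35 for Fga and -2.15 for Fgg. The uptake genes gave -3.63 for Cubn, -2.49 for Amn and -0.39 for Dab2. On its other probe set Cubn gave -1.21 and was not called (adjusted p = 0.157). The call of Dab2 was lost in 5 cases with 1 array left out (adjusted p = 0.0543 to 0.104). In the other direction stood Sox17 at 0.77, Sox7 at 2.00 and Cited1 at 2.24, the last lost without mouse replicate 2 of day 7 (adjusted p = 0.0535), rat replicate 1 of day 7 (adjusted p = 0.0658) or rat replicate 1 of day 9 (adjusted p = 0.0595).

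For co-transfer against mouse sites, the values were -6.23 for Afp, -5.62 for Ttr and -2.85 for Rbp4. They were -4.57 for Apoa1, -1.91 for Apoa2, -3.71 for Apoa4 and -2.37 for Apoc2, the last at an adjusted p of 0.0491. Fgg gave -1.60, Cubn -4.09 and Amn -1.62. Among transcription factors Hnf4a gave -2.29, Foxa1 -1.11 and Gata6 -1.16, and Sox17 gave 1.36. With single arrays left out, the calls were lost in 8 cases for Apoc2 (adjusted p = 0.0867 to 0.151), 6 for Foxa1 (0.0681 to 0.144), 5 for Fgg (0.0549 to 0.137), 4 for Amn (0.0543 to 0.0956) and 3 for Hnf4a (0.0589 to 0.0761).

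For co-transfer against rat sites, Rbp4 gave -2.29, Alb -1.26 and Sox7 -1.83, and Sox17 gave 0.59. On their other probe sets Sox17 gave 0.10 and Sox7 -0.92, and neither was called. The mean of both Sox17 probe sets gave 0.34, not called either (adjusted p = 0.175). For rat against mouse sites the other Sox7 probe set gave 0.17 and was not called. Rbp4 rose in rat sites and fell in co-transfer sites. The call of Alb was lost in 7 cases with 1 array left out (adjusted p = 0.0536 to 0.158).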

How the results depend on the processing

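Of 101 calls of single members over the comparisons and interactions, 67 held under every alternative that gave a value and 34 were lost under at least 1. Of 1536 recomputed values, 1394 kept direction and call, 140 kept the direction only and 2 turned. Both turned for Hnf4a on its brightest probe set without a suffix for shared or variant sequences, but not on the dimmer of its 2 such probe sets: the change in mouse sites was -0.19 and the interaction of co-transfer with mouse sites 0.09. With the brightest such probe set of each gene, which exists for 24 of the 28 members, the count of calls was 9 rather than 14 for co-transfer against mouse sites on day 9, 5 rather than 8 for the change in rat sites and 1 rather than 4 in co-transfer sites. It was 9 rather than 14 for the interaction of rat with mouse sites, and 9 rather than 14 for that of co-transfer with mouse sites. The cause was not tested. With each array left out, co-transfer against mouse sites on day 9 gave 9 to 12 calls. A group left with 1 array is assumed to vary like the others. The run as a block gave 3 calls for rat against mouse sites on day 7 and 4 for co-transfer against rat sites on day 9, as without it, and could not be fitted elsewhere. Over 30 pairs of same-numbered arrays, the correlation of their deviations from group means ran from -0.118 to 0.083. In a group of 2 arrays the deviations mirror each other, so many of these pairs repeat the same value. Whether same-numbered arrays share an animal or a day was not tested. The replicate block gave 16 calls rather than 15 for rat against mouse sites on day 9, and 15 rather than 14 for co-transfer against mouse sites. It gave 17 for the change in mouse sites and 4 for co-transfer against rat sites on day 9. Members near the dim end of the arrays, such as Fgb, Foxa1 and Fgg, are limited by signal over background, since 9 of the 28 did not lie above the 60th percentile on at least 2 arrays.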

Other observations

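Parietal endoderm genes, which make the basement membrane of the other yolk sac layer, did not share the members' course. Their mean log2 signal was 11.17 to 11.64 on all arrays, and how much of it came from uterine tissue was not tested. Of the 12 genes, 3 rose and 2 fell in mouse sites from day 7 to day 9 by limma at an adjusted p under 0.05. Among all genes 14.1% rose and 15.5% fell. The summed signal of the 12 was 65681 to 66782 in mouse sites of day 9, 57787 to 62581 in rat sites and 64434 to 65746 in co-transfer sites. In rat sites of day 9, 4 were higher and 5 lower than in mouse sites (11.2% and 10.8% of all genes). In co-transfer sites 0 were higher and 2 lower (3.53% and 2.85%). Genes of the anterior visceral endoderm and early endoderm gave 2 of 12 higher and 1 lower in mouse sites between the days, against the same 14.1% and 15.5%.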
